A study of Caenorhabditis elegans with 9 samples.

Results

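The RNA of whole hsf-1(ok600) larvae was compared gene by gene with that of hsf-1(ok600) larvae carrying an hsf-1::gfp transgene, rmSi1. Both genotypes carry ok600, a deletion allele of hsf-1, so the comparison sets the deletion without the transgene against the deletion with it. A gene entered the comparison if the deposited table marked its value as usable (status OK) in both genotypes and an FPKM of 1 or more in either. FPKM is the number of sequenced fragments scaled for transcript length and library size. These rules left 13071 of the 20389 genes listed. A further 7277 genes were usable but under an FPKM of 1 in both genotypes, and 41 were not marked OK. At the edge of the rule, aex-2 at 0.9993 and glb-21 at 0.9995 were the highest genes left out, and nhr-195 at 1.001 and W03F8.2 at 1.002 the lowest genes kept, each by its larger FPKM in this pair of genotypes.

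HSF-1 is the heat shock transcription factor of Caenorhabditis elegans. It binds heat shock elements in promoters, drives the genes of many chaperones after heat and other protein damage, and is also required for larval development and normal lifespan without heat. Chaperones are proteins that fold, refold or hold other proteins, and the Hsp70 and Hsp90 systems of the cytosol work with J-domain proteins and other cochaperones that set the pace of their ATP cycle.

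The mutant larvae were GFP-negative offspring of strain OG576, in which hsf-1(ok600) on chromosome I is balanced by hT2, a rearrangement of chromosomes I and III that carries a GFP marker. They therefore came from mothers that still had an intact hsf-1 on the balancer. The transgenic line was strain AM1061, in which rmSi1[hsf-1::gfp] is combined with hsf-1(ok600), and the promoter that drives the transgene is not given in the labels. Wild type, strain N2, was the remaining genotype and is given here as an additional value only. All larvae were collected at the L2 stage, 30 h after a 2 h egg lay at 20 °C, with no heat shock named, and 500 larvae from several collections made up a library.

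Each genotype had 3 libraries, 9 in all, but the deposited table gives 1 FPKM per gene and genotype with a lower and an upper bound, and the level of these bounds is not stated. No difference between the mutant and the transgenic line therefore has a replicate check, and no test or p-value was possible. Genes were described instead by whether the deposited intervals of the genotypes were apart, meaning that they did not overlap. This rule is no test. The mutant and wild type have deposited q-values, which are p-values adjusted for many genes, and these can differ from the rule. For fbxa-30 the intervals of mutant and wild type were apart with a q of 0.542, and for lgg-2 they overlapped with a q of 0.00249. The depth cannot be read from FPKM values and is unknown. At an FPKM of 20 and above, the interval reached to either side by a median of 64.9% of the value in the mutant against 67.9% in the transgenic line, and the smallest log2 difference with intervals apart was 1.22 in size. The 12 protein genes of the mitochondrial DNA were listed at 0 in every genotype and were not measured. Genes that overlap can share a locus in the table, and without a stated strand setting their reads cannot be told apart.

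In the mutated gene itself the genotypes overlapped. hsf-1, with sequence name Y53C10A.12 at ce10 chromosome I, 11953502 to 11961977, had an FPKM of 21.4 (6.52 to 36.4) in the mutant, 69.3 (29.4 to 109) in the transgenic line and 25.3 in wild type, where the numbers in parentheses are the deposited bounds. The transgenic line was 3.23-fold above the mutant, a ratio of the deposited FPKM as are all folds of single genes here, and the intervals overlapped. RNA of the undeleted part of the gene and RNA of the transgene both count as hsf-1, so this value checks neither the deletion nor the transgene by itself. Of the 7 compared genes of hsf-1 and its regulators none had intervals apart, and their median log2 difference was −0.04 (0.05 without genes that share a locus). The regulator gene with the highest FPKM, hpk-1, which encodes a homeodomain-interacting protein kinase, was at 108, 203 and 196.05 in wild type, mutant and transgenic line, and hsb-1, whose product binds HSF-1 and restrains it, was at 42.0, 39.0 and 54.3.

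Of the 13071 genes compared, 90 were higher in the mutant with intervals apart (0.689%) and 89 were lower (0.681%), while 12892 had overlapping intervals. By size alone, 1812 genes (13.9%) were at least 2-fold higher in the mutant and 1308 (10%) at least 2-fold lower, on the scale of log2(FPKM + 1). With a looser criterion, in which the difference had to exceed the root of the summed squared half-widths, 197 (1.51%) were higher and 268 (2.05%) lower. The log2(FPKM + 1) scale understates the difference of low genes. Over all genes the log2 difference, mutant minus transgenic line, had a median of 0.19, quartiles of −0.36 and 0.69, and a span of −1.45 to 1.49 from the 5th to the 95th percentile. Most of the positive shift lay in weakly expressed genes. The median was 0.03 over the 8277 genes that reached an FPKM of 5 in both genotypes, and list medians are read here beside 0.19 for all genes. Counts of genes with intervals apart in a list are read beside the 0.689% and 0.681% of all genes. These shares depend on level. Among genes with a mean FPKM of 100 or more over this pair of genotypes, 0.278% were higher and 2.08% lower. A list of abundant genes can therefore exceed 0.681% in part through its level. Genes with a mean FPKM under 2 had a median of 0.58, and 24.6% of them were at least 2-fold higher. A list of weakly expressed genes can therefore exceed 0.19 and 13.9% in part through its level.

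**Figure D1:**
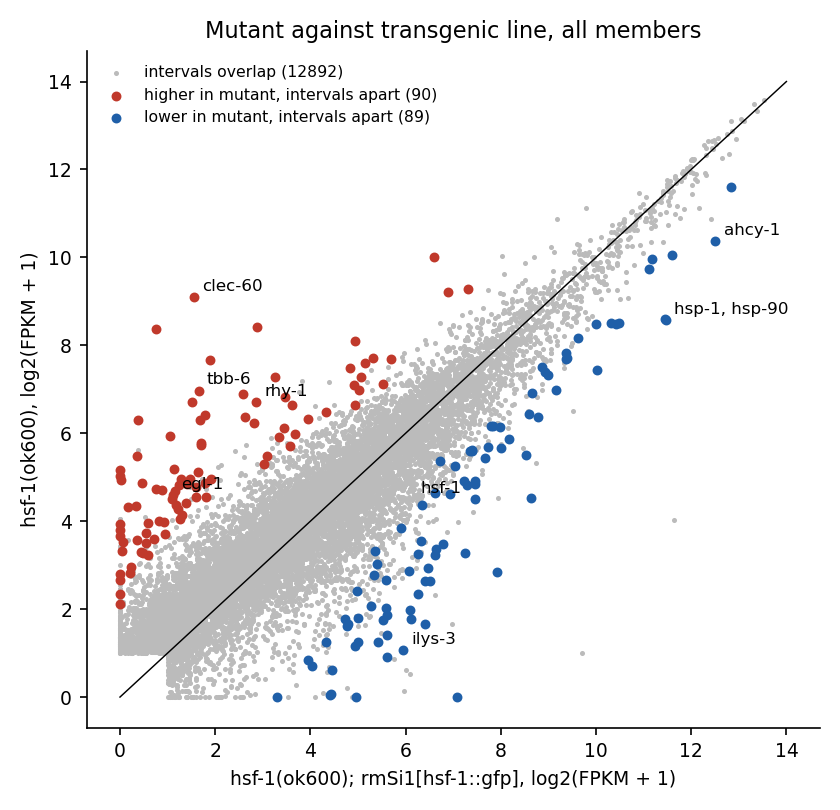
Level of every compared gene in hsf-1(ok600) (vertical axis) and in the transgenic line (horizontal axis), both as log2(FPKM + 1), with the line of equal levels. Red points are the 90 genes higher and blue points the 89 genes lower in the mutant with intervals apart; the blue points at the right are abundant genes such as ahcy-1, hsp-1 and hsp-90, and many red points lie near 0 in the transgenic line.

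The genes higher and lower in the mutant differed in abundance. The 90 higher genes had a median FPKM of 30.8 in the mutant against 1.63 in the transgenic line, and 9 of them were listed at 0 in the transgenic line. The 89 lower genes had a median of 19.7 in the mutant against 122 in the transgenic line, and 3 were listed at 0 in the mutant. Of the 1439 genes with a mean FPKM of 100 or more, 30 were lower in the mutant with intervals apart and 4 were higher. Of the 1951 genes with a mean under 2, 5 were higher and 0 were lower, and their median log2 difference was 0.58, against −0.09 for the most abundant genes. An interval is wider relative to a low value, so the count with intervals apart depends on abundance as well as on the difference. A gene under an FPKM of 1 in one genotype entered the comparison through the other alone, so its direction follows in part from the filter.

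**Figure D2:**
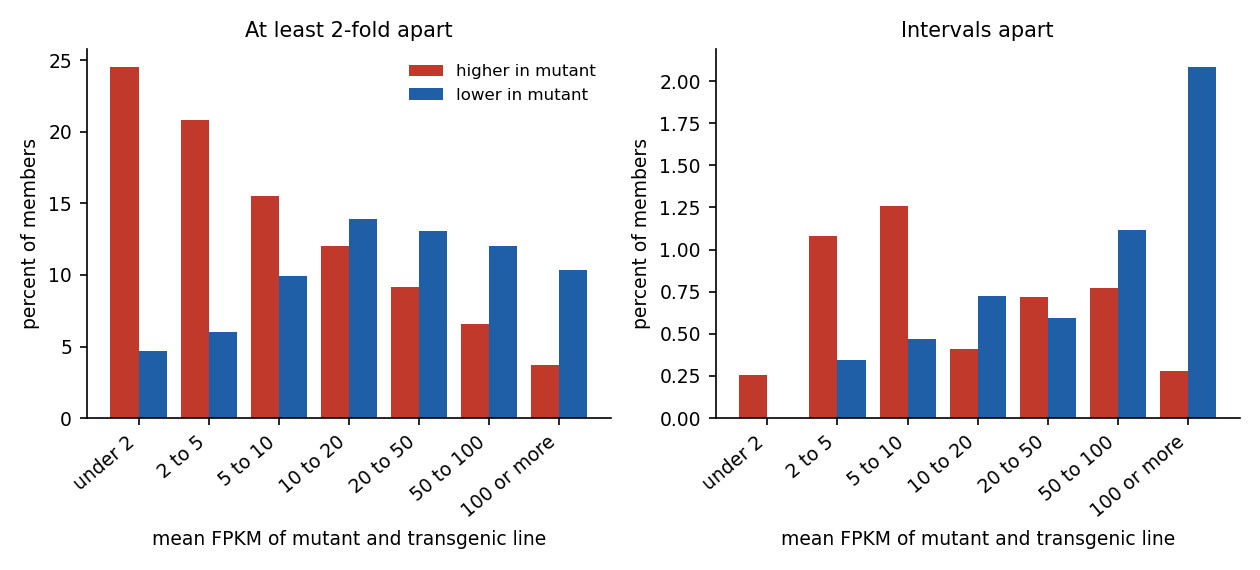
Share of compared genes at least 2-fold higher (red) or lower (blue) in the mutant, left, and with intervals apart, right, in 7 bins of the mean FPKM of the mutant and the transgenic line. In the lowest bin 24.6% of genes were at least 2-fold higher and 4.66% lower, and in the highest bin 3.68% and 10.4%.

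The constitutive chaperones of the cytosol were among the abundant genes that were lower in the mutant. hsp-1, the main constitutive Hsp70 gene (F26D10.3, ce10 chromosome IV, 17278920 to 17281298), was at an FPKM of 379 (202 to 556) in the mutant, 2819.7 (1827 to 3813) in the transgenic line and 2492 in wild type, a mutant level 7.44-fold below the transgenic one. hsp-90, the Hsp90 gene that the table lists as daf-21 (C47E8.5, ce10 chromosome V, 14680299 to 14688528, a locus of 3 genes), was at 385 (213 to 557) in the mutant, 2802 (1793 to 3813) in the transgenic line and 2062 in wild type, a mutant level 7.28-fold below the transgenic one. In both genes the interval of the mutant lay far below those of the other genotypes, and wild type and the transgenic line overlapped.

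The Hsp110 gene hsp-110, whose product exchanges the nucleotide of Hsp70, was at 69.2 (32.3 to 106) in the mutant, 253 (145 to 361) in the transgenic line and 177 in wild type, a mutant level 3.65-fold below the transgenic one. These were the 2 of 9 compared Hsp70 and Hsp110 genes and cofactors with intervals apart, against 0.681% of all genes lower, and none was higher. The list's median log2 difference was −0.85 (−1.47 without genes that share a locus) against 0.19 over all genes. The Hsp70 cofactor genes hip-1 and bag-1 were at 61.5 and 20.6 in the mutant against 102 and 37.9 in the transgenic line, with overlapping intervals. unc-23, a BAG-domain gene, and chn-1, the gene of the CHIP ubiquitin ligase that acts on Hsp70 clients, leaned the other way, at 51.4 and 13.3 against 45.9 and 7.38.

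Of the 11 genes of Hsp90 and its cochaperones, 3 were lower with intervals apart (against 0.681% of all genes; 1 without genes that share a locus), 0 were higher, and the median log2 difference was −1.11. Besides hsp-90 these were fkb-6, a peptidyl-prolyl isomerase gene of the FKBP family, and cyn-7, a cyclophilin gene. fkb-6, which shares a locus with another gene, was at 47.02 (17.5 to 76.5) in the mutant against 163 (82.1 to 244) in the transgenic line, with wild type at 149.8, a mutant level 3.47-fold below the transgenic one, and cyn-7 was at 1065 (559 to 1573) in the mutant against 3081 (1871 to 4290.3) in the transgenic line, with wild type at 3193, a mutant level 2.89-fold below the transgenic one. cyn-7 was also the 1 gene apart of 15 cyclophilin genes, whose median was −0.15. A further 7 genes had overlapping intervals and a mutant level below the transgenic one. sti-1, whose product joins Hsp70 to Hsp90, was at 6.38 (0.649 to 12.15) in the mutant against 19.99 (4.45 to 35.4) in the transgenic line, with wild type at 47.8, so that its transgenic value lay between the other genotypes. The ATPase activator gene ahsa-1 was at 94.8, 40.5 and 88.7 in wild type, mutant and transgenic line, the kinase cochaperone gene cdc-37 at 147, 101 and 216, the p23 gene daf-41 at 766, 393 and 734 and unc-45, a myosin chaperone gene, at 14.7, 9.58 and 22.1. The remaining pair, sgt-1 and aipr-1, differed little, at log2 differences of −0.28 and −0.14, and the phosphatase gene pph-5, the list's 1 gene with a higher mutant level, was at 198 in the mutant against 181 in the transgenic line.

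J-domain proteins deliver clients to Hsp70. Of 28 compared J-domain genes, 2 were lower with intervals apart (1 without genes that share a locus), against 0.681% of all genes. None was higher, and the median of −0.15 stood nearer to that of all genes. dnj-13, in a locus of 5 genes, was at 119.6 (49.8 to 189) in the mutant against 401 (207 to 595) in the transgenic line, with wild type at 384, a mutant level 3.35-fold below the transgenic one, and dnj-19 was at 70.5 (27.4 to 114) in the mutant against 227 (114 to 339) in the transgenic line, with wild type at 236, a mutant level 3.21-fold below the transgenic one. dnj-11, dnj-12 and the mitochondrial gene dnj-10 were at 46.7, 50.1 and 36.5 in the mutant against 124, 106 and 84.4 in the transgenic line, with overlapping intervals. At the other end of the list stood dnj-24 at 91.3 against 40.4, dnj-16 at 24.9 against 13.5, and dnj-14 at 82.0 against 45.5, each higher in the mutant with overlapping intervals. The family thus ranged from −1.74 to 1.16 on the log2 scale.

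The CCT chaperonin is a double ring of 8 different subunits that folds actin and tubulin, and prefoldin hands it clients. All of the subunit genes cct-1 to cct-8 had a mutant level below the transgenic one, with log2 differences from −1.64 (cct-1) to −1.002 (cct-6), and intervals were apart for cct-1 and cct-7. cct-1 was at 70.7 (30.6 to 111) in the mutant against 222 (114 to 329.8) in the transgenic line, with wild type at 162. cct-7 was at 181 (92.3 to 269) in the mutant against 462 (271 to 654) in the transgenic line, with wild type at 455. The prefoldin genes pfd-5 and pfd-4 had log2 differences of −2.05 and −0.99, while pfd-1, pfd-3 and pfd-6 had −0.08, −0.09 and 0.02. The tubulin cofactor genes on the same list differed from the CCT genes in direction: tbca-1 was at 63.7 in the mutant against 18.99 in the transgenic line, tbcb-1 at 40.3 and 20.7, and the cofactor-like gene coel-1 at 13.7 and 1.24, all with overlapping intervals. Over the 19 genes, 2 were lower (against 0.681% of all genes) and 0 higher with intervals apart, with a median of −0.99.

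**Figure D3:**
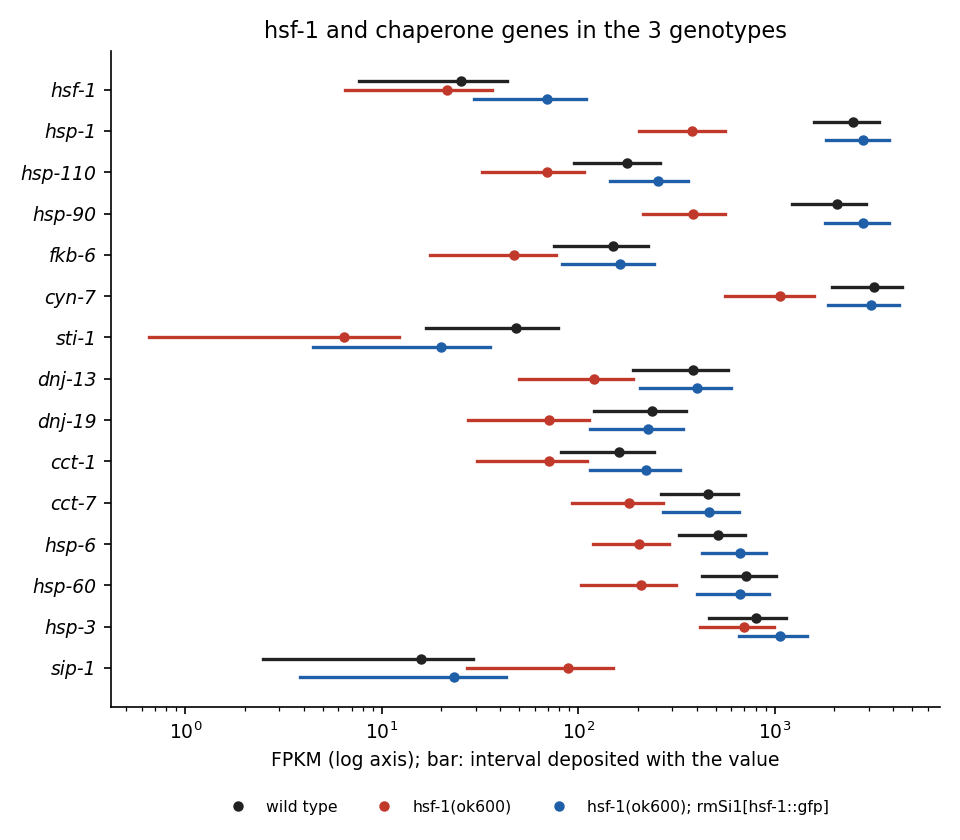
FPKM of hsf-1 and 14 chaperone genes in wild type (black), hsf-1(ok600) (red) and the transgenic line (blue) on a log axis; points are the deposited values and bars the intervals deposited with them. The red bars of hsp-1 and hsp-90 lie below both others without overlap, the bars of the endoplasmic reticulum gene hsp-3 overlap, and sip-1 is highest in the mutant.

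The genes best known for induction by heat were low. Of the 12 heat-inducible Hsp16 and Hsp70 genes listed, 4 reached an FPKM of 1 in the mutant or the transgenic line, and none had intervals apart. Their median log2 difference of −1.02 rests on low values, and was −2.66 with a pseudocount of 0.1, −2.83 with 0.01 and −0.22 with no minimum FPKM. hsp-16.2 was at 0.857 (0 to 2.88) in the mutant, 10.5 (0.359 to 20.7) in the transgenic line and 97.1 in wild type, so wild type was the highest of the genotypes. hsp-16.41 was at 5.02, 0.414 and 1.76 in wild type, mutant and transgenic line, and hsp-17, a gene of this list with a high level in all genotypes, at 149.8, 186 and 174. Among the 6 compared genes of other small heat shock proteins none had intervals apart, and the median of 0.63 was above 0. sip-1, a small heat shock protein gene known for its expression in embryos, was at 88.7 (27.1 to 149) in the mutant against 23.3 (3.82 to 42.7) in the transgenic line, with wild type at 15.8, a mutant level 3.81-fold above the transgenic one with overlapping intervals. hsp-25 was at 1239 against 795, and hsp-12.2 at 144 against 185.

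Chaperones of the endoplasmic reticulum differed less. Of 21 genes, 0 were apart in either direction, 0 were at least 2-fold apart, and the median was −0.35. The protein disulfide isomerase gene pdi-2 was at 2301 in the mutant against 3307 in the transgenic line, and the calreticulin gene crt-1 at 1705 against 2383. The channel through which new proteins enter the endoplasmic reticulum showed more: 8 of 11 genes of the translocon and the associated TRAP complex were at least 2-fold lower in the mutant, against 10% of all genes, and the median was −1.21. sec-61.A, the channel subunit, was the 1 gene of these with intervals apart (against 0.681% of all genes lower), at 996 (636 to 1357) in the mutant against 2318 (1503 to 3131) in the transgenic line, with wild type at 1561, a mutant level 2.33-fold below the transgenic one. icd-1, which encodes a subunit of the nascent polypeptide-associated complex at the ribosome and was picked after its value was seen, lies in a locus of 3 genes and was also apart, at 3099 (1826 to 4374) in the mutant against 7336 (4453 to 10230.0) in the transgenic line, with wild type at 4693.

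In mitochondria, the matrix chaperone genes were lower in the mutant. hsp-6, the mitochondrial Hsp70 gene, was at 204 (118 to 289.6) in the mutant, 662 (424 to 900.4) in the transgenic line and 513 in wild type, a mutant level 3.24-fold below the transgenic one. hsp-60, the mitochondrial chaperonin gene, was at 208 (103 to 312) in the mutant, 667 (403 to 931) in the transgenic line and 717 in wild type, a mutant level 3.21-fold below the transgenic one, and its neighbour Y22D7AL.10, a gene of the Hsp10 type, at 365 (149.6 to 582) in the mutant, 1436 (799.9 to 2071) in the transgenic line and 1089.8 in wild type, a mutant level 3.93-fold below the transgenic one. The pair lies within ce10 chromosome III, 1617144 to 1625911. These 3 of 18 genes of mitochondrial chaperones and proteases had intervals apart (against 0.681% of all genes lower), 0 were higher, and the median was −0.54. The stress regulator genes of mitochondria, atfs-1 and dve-1, named after their values were seen, were at 52.4 and 82.3 in the mutant against 68.5 and 60.1 in the transgenic line.

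Other mitochondrial lists had a median below that of all genes without a gene apart. This held for the 16 import genes (median −0.79; 7 at least 2-fold lower and 0 higher), the 66 genes of mitochondrial ribosomal proteins (−0.51; 16 and 0) and the 53 genes of the respiratory chain and ATP synthase (−0.37; 5 and 0). Of all genes 10% were at least 2-fold lower and 13.9% higher, so the count of lower respiratory chain genes was near that of all genes. timm-17B.1, a subunit gene of the inner-membrane import channel, was at 52.8 (10.4 to 95.2) in the mutant against 256 (76.5 to 435) in the transgenic line, with wild type at 103.9, and the intervals overlapped. atp-1, the alpha subunit gene of the ATP synthase, was at 2098, 1841 and 2423 in wild type, mutant and transgenic line. All genes of these 3 lists are nuclear.

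The methionine cycle held 4 genes apart of 19, all lower in the mutant (against 0.681% of all genes). The cycle makes S-adenosylmethionine, the methyl donor of the cell, and in the nematode much of it is spent on making phosphatidylcholine from phosphoethanolamine. ahcy-1, whose product clears S-adenosylhomocysteine, was at 1319 (763 to 1876) in the mutant, 5815 (4105 to 7525) in the transgenic line and 4664 in wild type, a mutant level 4.41-fold below the transgenic one. sams-1, an S-adenosylmethionine synthetase gene, was at 355 (202 to 508) in the mutant, 1361 (857 to 1865) in the transgenic line and 1235 in wild type, a mutant level 3.83-fold below the transgenic one. mtrr-1, the gene of the reductase that keeps methionine synthase active, was at 28.9 (4.55 to 53.4) in the mutant, 175 (58.6 to 291) in the transgenic line and 78.8 in wild type, a mutant level 6.05-fold below the transgenic one, with wild type between the other genotypes. pmt-2, a phosphoethanolamine methyltransferase gene, was at 225 (114 to 336) in the mutant, 658 (381 to 935) in the transgenic line and 600.5 in wild type, a mutant level 2.93-fold below the transgenic one. In all 4 genes the value of wild type was above that of the mutant. The 19 genes of this list had a median of −0.96, with 9 at least 2-fold lower and 1 higher, against 10% and 13.9% of all genes. Named after their values were seen, the other methyltransferase gene pmt-1 and the methionine synthase gene metr-1 were nearer, at 413 against 644 and 135 against 192, and the folate enzyme gene dao-3 was higher in the mutant, at 195 against 92.9.

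Fatty acid genes with intervals apart were also lower in the mutant, against 0.681% of all genes lower in this way. fat-6, a delta-9 desaturase gene that turns stearic into oleic acid, was at 81.6 (25.5 to 138) in the mutant, 436 (213 to 659) in the transgenic line and 237 in wild type, a mutant level 5.35-fold below the transgenic one, and was the 1 gene apart of the 18 genes of synthesis and desaturation, whose median was −0.24. Among the 10 elongation genes, with a median of −0.93, elo-6, needed for branched-chain fatty acids, was at 21.6 (3.15 to 40.02) in the mutant against 175 (70.9 to 279.8) in the transgenic line, with wild type at 111, a mutant level 8.13-fold below the transgenic one. elo-1, needed for polyunsaturated fatty acids, was at 284 (140.1 to 429) in the mutant against 782 (439 to 1124) in the transgenic line, with wild type at 625, a mutant level 2.75-fold below the transgenic one. The fatty acid synthase gene fasn-1, named after its value was seen, was at 309 against 491 with overlapping intervals.

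In fatty acid breakdown, 2 of 53 genes were lower with intervals apart (against 0.681% of all genes), 0 were higher, and the median was −0.65. acdh-1, an acyl-CoA dehydrogenase gene of the propionate shunt that responds to vitamin B12 supply, was at 366 (204 to 527) in the mutant, 1278 (794 to 1761) in the transgenic line and 1433 in wild type, a mutant level 3.49-fold below the transgenic one. It was also the 1 gene apart among the 13 genes of propionate breakdown, whose median was −0.79. cpt-4, a carnitine palmitoyltransferase gene, was at 48.196 (21.5 to 74.7) in the mutant against 167 (92.5 to 242) in the transgenic line, with wild type at 130.0, a mutant level 3.47-fold below the transgenic one. Lipases went the other way in 1 gene: lips-11 was at 112.3 (42.0 to 182) in the mutant, 10.01 (1.595 to 18.4) in the transgenic line and 1.31 in wild type, a mutant level 11.2-fold above the transgenic one and the 1 gene apart of 19, with a median of 0.20 like that of all genes. Of all genes 0.689% were higher with intervals apart.

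Central carbon metabolism held 1 gene apart of 38 (against 0.681% of all genes lower), with a median of −0.31. idh-1, an isocitrate dehydrogenase gene, was at 357 (187 to 528) in the mutant against 1016 (603 to 1429) in the transgenic line, with wild type at 818, a mutant level 2.84-fold below the transgenic one. Named after their values were seen, other metabolic genes with intervals apart and lower in the mutant were the transketolase gene tkt-1 (49.4 against 254), the cytosolic aconitase gene aco-1 (168 against 489), the xanthine dehydrogenase gene xdh-1 (8.92 against 40.2), the pyrimidine synthesis gene pyr-1 (40.3 against 104.3) and the fatty acid binding protein gene lbp-6 (126 against 573, in a locus of 2 genes). Aldehyde dehydrogenases had no gene apart of 12 and a median of −0.66, and antioxidant enzymes none of 22 and a median of −0.25. msra-1, a methionine sulfoxide reductase gene, was the antioxidant gene with the largest FPKM after the peroxiredoxin gene prdx-2, and was at 263 (108 to 419) in the mutant against 721 (366 to 1077) in the transgenic line, with wild type at 945, a mutant level 2.74-fold below the transgenic one with overlapping intervals, while prdx-2 was at 1581 against 1870.4.

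The protein synthesis machinery differed by component. The 80 genes of cytosolic ribosomal proteins lay close to equal levels, with a median log2 difference of 0.02 that becomes −0.01 when the genotypes are centred on each other, quartiles of −0.20 and 0.11, and 0 genes apart or 2-fold apart. rpl-18A and rpl-18, the abundant examples, were at 12155 and 11555 in the mutant against 11778 and 10271. Genes that build ribosomes had a median of −0.66 over 28 genes, with none apart, 10 at least 2-fold lower and 1 higher (10% and 13.9% of all genes). The fibrillarin gene fib-1 was at 394 (196.3 to 592) in the mutant against 896 (515 to 1278) in the transgenic line, with wild type at 820.5, and the nucleolin-like gene nucl-1 at 273 (153 to 393) in the mutant against 521 (314 to 727) in the transgenic line, with wild type at 504. Translation factors had a median of −0.38 over 35 genes with none apart. The elongation factor gene eef-1A.1 was at 6454 against 5535, and inf-1, the gene of the helicase eIF4A, at 1878 (816 to 2941) in the mutant against 5430.0 (2513 to 8351) in the transgenic line, with wild type at 3695, a mutant level 2.89-fold below the transgenic one with overlapping intervals. The 33 tRNA synthetase genes had a median of −0.18, the 54 splicing genes −0.17, the 40 nuclear pore and transport genes −0.27 and the 40 histone genes −0.53, each with none apart.

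Protein breakdown showed no such lowering. The 33 proteasome genes had a median of 0.24, with 0 genes apart or 2-fold apart, and the 38 ubiquitin and SUMO genes a median of 0.19 with none apart. The subunit genes pas-5 and pas-6 were at 447 and 387 in the mutant against 347 and 295.

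Autophagy genes stood out on the side higher in the mutant. Autophagy encloses cytoplasm, organelles or aggregates in a membrane that carries lipid-linked Atg8 proteins and delivers them to the lysosome. Of 31 compared genes, 4 were higher in the mutant with intervals apart (3 without genes that share a locus), against 0.689% of all genes. None was lower, 12 were at least 2-fold higher (against 13.9%), and the median was 0.72. lgg-2, an Atg8 gene of the LC3 type in a locus of 2 genes, was at 593 (292 to 895) in the mutant, 118 (31.1 to 204) in the transgenic line and 255 in wild type, a mutant level 5.04-fold above the transgenic one. epg-9, the gene of the Atg101 subunit of the initiating kinase complex, was at 209 (88.5 to 330.3) in the mutant, 38.6 (7.57 to 69.7) in the transgenic line and 86.8 in wild type, a mutant level 5.42-fold above the transgenic one. allo-1, a receptor gene for the removal of paternal organelles, was at 137 (60.1 to 213) in the mutant, 29.1 (4.93 to 53.3) in the transgenic line and 47.3 in wild type, a mutant level 4.69-fold above the transgenic one. sqst-1, the gene of the p62-type receptor for ubiquitinated cargo, was at 138 (75.9 to 200.2) in the mutant, 45.1 (20.4 to 69.8) in the transgenic line and 50.4 in wild type, a mutant level 3.06-fold above the transgenic one.

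In all 4 genes wild type lay between the other genotypes and nearer to the transgenic line, but its interval was apart from neither. In the deposited test of the mutant against wild type, q was 0.00249 for lgg-2, allo-1 and sqst-1 and 0.00616 for epg-9. For lgg-2 and epg-9 wild type was close to midway. Its log2 differences from the transgenic line were 1.11 and 1.15, against 2.32 and 2.41 for the mutant. With overlapping intervals, and named after their values were seen, the other Atg8 gene lgg-1 was at 431 (208 to 654) in the mutant against 162 (54.1 to 270.2) in the transgenic line, with wild type at 125, and the initiation gene atg-13 at 43.001 against 10.7. The initiating kinase gene unc-51 and the membrane protein gene atg-9 did not share this, at 67.6 against 73.0 and 20.6 against 27.7. Lysosomal and gut proteases and V-ATPase genes, 44 in all, had a median of −0.20, and 1 gene apart in each direction, against 0.689% of all genes higher and 0.681% lower. The abundant aspartic protease gene asp-1 was at 852 (458 to 1247) in the mutant against 2203 (1418 to 2988) in the transgenic line, with wild type at 2003, a mutant level 2.59-fold below the transgenic one, and asp-17 at 12.34 (1.09 to 23.7) in the mutant against 0.469 (0 to 0.9003) in the transgenic line, with wild type at 0.421, a mutant level 26.3-fold above the transgenic one.

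Among genes of haem, iron and hypoxia, 2 of 22 were apart (1 without genes that share a locus), both higher in the mutant. Of all genes 0.689% were higher in this way. The list's median of 0.05 turned to −0.37 at a minimum FPKM of 5. The 2 genes apart are known as targets of the hypoxia factor HIF-1. nhr-57, a nuclear hormone receptor gene, was at 118 (53.97 to 182) in the mutant, 4.97 (0.389 to 9.50) in the transgenic line and 20.3 in wild type, a mutant level 23.8-fold above the transgenic one, and rhy-1, whose product restrains HIF-1, lies in a locus of 2 genes and was at 103.6 (47.3 to 159.8) in the mutant, 6.25 (0.408 to 12.07) in the transgenic line and 9.71 in wild type, a mutant level 16.6-fold above the transgenic one. Named after their values were seen, further genes of that pathway differed less: the prolyl hydroxylase gene egl-9 was at 89.8 against 55.5, cysl-2 at 219 against 196.5, and hif-1 itself at 281 against 366, all with overlapping intervals. The haem transporter gene hrg-4, also named afterwards, was at 2.05 (0 to 4.89) in the mutant against 30.9 (0.222 to 77.9) in the transgenic line, with wild type at 29.8. nhr-57 was also the 1 gene apart of the 193 compared nuclear hormone receptor genes, a share no larger than the 0.689% of all genes. The median of these receptor genes was 0.28.

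Apoptosis genes had 1 of 20 apart and higher in the mutant, against 0.689% of all genes. egl-1, the BH3-only gene that starts programmed cell death, was at 23.2 (3.82 to 42.4) in the mutant, 1.15 (0 to 2.29) in the transgenic line and 1.66 in wild type, a mutant level 20.1-fold above the transgenic one. In the deposited test of the mutant against wild type its q-value was 0.155. The genes acting after it, named after their values were seen, were at similar levels: ced-9 at 7.76 against 5.12, ced-4 at 10.6 against 11.03 and ced-3 at 8.27 against 5.21. Of 23 tubulin, actin and profilin genes, tbb-6, a beta-tubulin gene in a locus of 2 genes, was apart, at 124 (59.1 to 189.5) in the mutant, 2.14 (0 to 4.22) in the transgenic line and 0.708 in wild type, a mutant level 58.0-fold above the transgenic one. The other tubulin and actin genes ranged between log2 differences of −1.28 and 1.08.

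Genes linked to defence differed in both directions. clec-60, a C-type lectin gene, was at 546 (299 to 791) in the mutant, 1.95 (0 to 4.17) in the transgenic line and 1.11 in wild type, a mutant level 281-fold above the transgenic one. Of 96 compared C-type lectin genes, 3 were higher (clec-60, clec-140 and clec-174) and 1 lower (clec-186) with intervals apart. Of all genes 0.689% were higher and 0.681% lower in this way. clec-140 was at 21.7 against 1.12, clec-174 at 15.01 against 0.766 and clec-186 at 23.8 against 96.7. The list's median of 0.28 became −0.14 at a minimum FPKM of 5. Reads that fit several members of such families can be shared out between them, and how the authors' counting treated them is not given.

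Of 38 lysozyme, saposin-like and thaumatin genes, 2 were higher and 3 lower with intervals apart, against 0.689% and 0.681% of all genes. The saposin-like genes spp-9 and spp-21, neighbours on the X chromosome, were listed at 0 in wild type and in the transgenic line and at 11.6 (0.309 to 22.6) and 12.96 (0.341 to 21.8) in the mutant. The lysozyme gene ilys-5 was at 174 (54.7 to 293) in the mutant, 1042 (554 to 1532) in the transgenic line and 1103 in wild type, a mutant level 6.003-fold below the transgenic one. lys-4, the fifth gene of this list apart and named after its value was seen, was at 57.04 (16.16 to 97.9) in the mutant, 288 (123 to 444) in the transgenic line and 302 in wild type, a mutant level 5.04-fold below the transgenic one. ilys-3 was at 1.09 (0 to 2.01) in the mutant, 60.2 (7.38 to 113) in the transgenic line and 0.227 in wild type, so its interval in the transgenic line was apart from those of both other genotypes.

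The infection-induced gene irg-2 was at 8.79 (1.13 to 16.4) in the mutant against 0.363 (0 to 1.02) in the transgenic line, with wild type at 0.421, a mutant level 24.2-fold above the transgenic one, and was the 1 gene apart of 28 on its list, whose median of 0.28 became −0.02 at an FPKM of at least 5. F-box and MATH-BTB genes encode adaptors of ubiquitin ligases and are a large family of mostly low expression. Of 463 listed, 135 were compared. Against 0.689% of all genes, 4 of the 135 were higher with intervals apart (3 without genes that share a locus), and 0 were lower. The 4 higher genes were fbxa-30 (10.6 against 0.0395), fbxa-95 (14.6 against 0.510, in a locus of 2 genes), fbxa-163 (8.96 against 0.0292) and fbxa-162 (5.92, listed at 0 in the transgenic line). Each of these passed the minimum FPKM through the mutant alone, so its direction follows in part from the filter. In all, 56 genes of the family were at least 2-fold higher, against 13.9% of all genes, and the median was 0.85 (1.39 with a pseudocount of 0.01, and 0.05 with no minimum FPKM).

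The 26 genes of the intracellular pathogen response had a median of 0.93 (0.36 with no minimum FPKM) and 11 genes at least 2-fold higher, against 13.9% of all genes, with none apart. Their values were low, except for skr-3 at 241 against 159 and skr-4 at 32.9 against 16.8, genes of Skp1-like adaptors. The list's median FPKM was 4.07 (mutant) and 1.84 (transgenic line). Among all compared genes with a mean FPKM of 2 to 5, 20.8% were at least 2-fold higher, with a median of 0.43. The list's shift may therefore go in part with its low level. The 22 epidermal antimicrobial peptide genes had a median of 0.94, also with 11 at least 2-fold higher, against 13.9% of all genes, and none apart. nlp-33 was at 620.0, 782 and 674 in wild type, mutant and transgenic line, but its values in wild type and mutant lay above their own upper bounds of 577 and 724.

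Genes of detoxification were mixed. Of 55 UDP-glucuronosyl transferase genes, 2 were lower with intervals apart (against 0.681% of all genes) and 0 higher. ugt-51 was at 2.37 (0.0642 to 4.62) in the mutant against 44.8 (11.7 to 77.7) in the transgenic line, with wild type at 7.03. ugt-32 was at 0.791 (0 to 1.68) in the mutant against 14.4 (1.75 to 27.1) in the transgenic line, with wild type at 1.76. The list's median of −0.03 became 0.01 without genes that share a locus. The 41 cytochrome P450 genes (median 0.32) and the 35 glutathione transferase genes (0.20, and −0.09 at an FPKM of at least 5) had none apart.

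Structural and developmental lists held few genes apart. The 38 sarcomere genes of muscle had a median of 0.05 with 0 genes apart or 2-fold apart, and the tropomyosin gene lev-11 was at 4165, 3949 and 4068 in wild type, mutant and transgenic line. The 41 moulting and epidermis genes had a median of 0.08, the 17 furrow and body shape collagens 0.03 (−0.02 at an FPKM of at least 5) and the 14 heterochronic genes, which set the larval stage at which cells divide, −0.08, with none apart. lin-42, a heterochronic gene that cycles with the moult, was at 591, 477 and 685. The 88 other cuticle collagens had a median of 0.37 with none apart, 16 at least 2-fold higher and 3 lower, against 13.9% and 10% of all genes. Replication and cell cycle genes had a median of −0.06, germ line genes 0.18 and Argonaute and heterochromatin genes −0.09, with none apart. All larvae were taken at the same hour, so a difference of age within the L2 stage between the genotypes cannot be told apart from a difference of genotype.

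Lists of neuropeptide and synapse genes lay above the median of all genes. The 105 neuropeptide genes had a median of 0.78, and 91 were higher in the mutant and 14 lower. Of them 41 were at least 2-fold higher (against 13.9% of all genes), 4 at least 2-fold lower and none was apart. The list also holds epidermal antimicrobial peptide genes such as nlp-24, at 367 against 624, so it is not neuronal throughout. nlp-36 was at 192 (7.37 to 376) in the mutant against 639 (40.1 to 1068) in the transgenic line, with overlapping intervals. The 47 synapse and neurotransmitter genes had a median of 0.52. The synaptobrevin gene snb-1 was at 303, 624 and 421 in wild type, mutant and transgenic line. The 37 insulin-like peptide and signalling genes had a median of 0.54 and none apart, and the 67 hedgehog-related and patched-related genes a median of 0.24 and 1 lower (against 0.681% of all genes), grd-11, at 2.16 (0.105 to 4.26) in the mutant against 26.6 (6.38 to 46.9) in the transgenic line, with wild type at 0.620.

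Marker genes of tissues were summed to see whether the make-up of the larvae differed. The 8 neuronal markers summed to an FPKM of 1473 in the mutant, 1024 in the transgenic line and 964 in wild type, and 7 of the 8 were higher in the mutant than in the transgenic line. The 6 intestinal markers summed to 1353, 1922 and 1603 in the same order, the 6 pharyngeal markers to 313, 446 and 413, and the 6 markers of body wall muscle to 8869, 9107 and 8782. The 6 epidermal markers summed to 1111, 1034 and 767. The germ line markers, of which 5 of 6 were compared, summed to 486, 471 and 463. Of these sums cgh-1 alone gave 439, 427 and 414. No marker of these tissues had intervals apart, and markers of sperm and vitellogenins were at or near 0 in every genotype. Of the 6 embryonic markers, 1 was compared, and all together summed to 216 in the mutant, 203 in the transgenic line and 228 in wild type. In wild type 1 gene gave 227.5 of the sum, so the sum describes that gene and not embryonic content. The 2 compared vitellogenin genes, yolk proteins of the adult intestine, had a median of 0.19. In bulk RNA fewer cells of a type and less RNA per cell cannot be told apart, and the part of these marker differences in the lists of genes, such as the neuropeptide genes, and in genes known for expression in the intestine, such as fat-6, acdh-1 and asp-1, was not tested.

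The largest differences among genes with intervals apart and an FPKM of 5 or more were mostly in genes with little known of their role. On the higher side B0563.9 led, at an FPKM of 331 in the mutant, 0.699 in the transgenic line and 0 in wild type, but its mutant value lay outside its own bounds of 21.2 to 222. After clec-60 came srw-85, a gene of a chemoreceptor family, at 78.2 against 0.292 with wild type at 39.4, and Y37H2A.14 at 202 against 2.70. C25F9.11 was at 341 (130.1 to 472) in the mutant, 6.37 (0.319 to 12.28) in the transgenic line and 18.5 in wild type. C08E8.4 was at 1.62, 103.95 and 1.87 in wild type, mutant and transgenic line, and aqp-10, an aquaporin gene, at 32.97, 43.4 and 0.278. nspe-6 was listed at 0 in wild type and the transgenic line and at 34.9 (0.479 to 43.1) in the mutant. The remaining genes of the 15 were tbb-6, C25F9.16, srg-31, F33H12.7, T26H5.9, srw-86 and Y46H3A.5, at 28.04 to 124 in the mutant and at most 2.46 in the transgenic line.

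On the lower side the 15 largest differences were in genes high in the transgenic line and lower in both other genotypes. C11D2.1 was listed at 0 in wild type and the mutant and at 134 (2.43 to 168) in the transgenic line. F52A8.3 was at 6.17 (0 to 16.21) in the mutant, 241 (26.6 to 456) in the transgenic line and 2.97 in wild type. C48B4.6, in a locus of 2 genes, was at 22.1 (0 to 45.5) in the mutant, 396 (122 to 671) in the transgenic line and 7.43 in wild type, and JC8.4 at 8.64 (0.601 to 16.6) in the mutant, 152 (34.1 to 269.7) in the transgenic line and 5.89 in wild type. The others were sdz-19, ilys-3, ZK6.6, oac-27, Y48G9A.6, srg-62, C16A3.2, R05G6.1, C01A2.1, ZK896.5 and F45G2.7, at 20.2 to 83.4 in the transgenic line, 0 to 4.05 in the mutant and 0 to 14.8 in wild type.

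The place of wild type differed between the directions. Of the 90 genes higher in the mutant, wild type was nearer to the transgenic line in 79 and nearer to the mutant in 11, by log2(FPKM + 1). The interval of wild type was apart from that of the mutant in 46 of them, from that of the transgenic line in 2, and from neither in 42. Of the 89 genes lower in the mutant, wild type was nearer to the transgenic line in 44 and nearer to the mutant in 45. Its interval was apart from the mutant in 20, from the transgenic line in 32 and from neither in 37. The lower genes thus held a group in which the transgenic line alone was high, with a median FPKM over all 89 of 19.7 in the mutant, 40.8 in wild type and 122 in the transgenic line. hsp-1, hsp-90, ahcy-1, acdh-1 and ilys-5 belong to the genes in which wild type was nearer to the transgenic line, and ilys-3, grd-11 and ugt-32 to those in which it was nearer to the mutant. The genes were chosen for a difference between the mutant and the transgenic line, so one of these values being far from wild type follows in part from the choice, and the counts are a description.

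**Figure D4:**
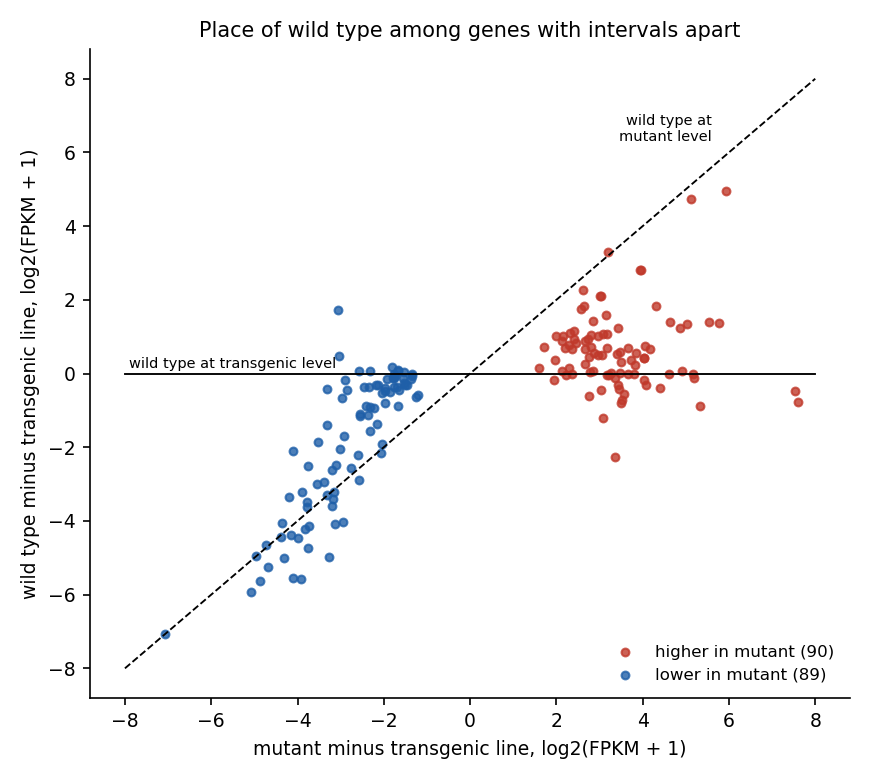
Wild type minus transgenic line (vertical axis) against mutant minus transgenic line (horizontal axis), both as differences of log2(FPKM + 1), for the 90 genes higher (red) and 89 lower (blue) in the mutant with intervals apart. Points on the solid line have wild type at the transgenic level and points on the dashed line at the mutant level; both axes contain the value of the transgenic line, so the points follow the dashed line in part by construction. Most red points lie near the solid line, and blue points divide between the lines.

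Genes apart were found on all nuclear chromosomes. Of all genes compared 0.689% were higher and 0.681% lower. On chromosome V 30 genes were higher (1.14%) and 24 lower (0.914%) of 2625 compared, and on chromosome II 19 (0.887%) and 16 (0.747%) of 2143. On chromosome I, which carries hsf-1 and is rearranged in the balancer, 9 were higher (0.428%) and 12 lower (0.571%) of 2102. Chromosome III held 5 (0.242%) and 10 (0.483%) of 2069. Chromosome IV held 13 (0.621%) and 20 (0.956%) of 2092 and the X chromosome 14 (0.686%) and 7 (0.343%) of 2040. Some of the genes were neighbours: 20 of the 90 higher genes lay in 9 runs of neighbours at most 20 kb apart, and 6 of the 89 lower genes in 3 runs. How often compared genes in general are such neighbours was not counted, so these counts do not show clustering. Some runs also span compared genes that were not apart, as between nep-26 and srlf-34. The ion channel genes acd-1, acd-2 and delm-2 formed a run at ce10 chromosome I, 4094612 to 4112387, were named after their values were seen, and were at 33.5, 8.45 and 19.5 in the mutant against 2.12, 0.502 and 0.255 in the transgenic line. On chromosome V, srw-85, C25F9.11 and C25F9.16 lay within 19429411 to 19434655, and no other run held 3 genes.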

How the data were processed

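RNA was measured in whole L2 larvae of 3 genotypes with 3 libraries each. Per the submitters' processing notes, TopHat2, Cuffdiff and the build ce10 were used; their versions and roles were not given in the sources used here. The authors deposited FPKM values pooled over the libraries, 1 per gene and genotype, with bounds and a status. They also deposited a column of q-values for the mutant against wild type, which served in the rule for named genes and is quoted for a few of them. Nothing says that the libraries came from separate cultures. Gene symbols were updated by sequence name from a RefSeq table of the assembly WBcel235, which matched 19879 genes; positions are the deposited loci in ce10, counted from 1.

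A test per library with limma had been planned, but with 1 value per genotype the stated fallback was used, non-overlap of the deposited intervals. Log2 differences were taken with a pseudocount of 1. The columns hold no depth, so no counting error could be given beyond the deposited bounds. The genes compared, the 60 lists and the alternatives were chosen with earlier results of these data known. Named genes were hsf-1, chaperone genes apart or with a deposited test against wild type, up to 4 genes apart of each other list (with none apart, the 2 of highest FPKM), and the 15 largest differences in each direction; others are marked. Promoter motifs were not analysed here. Values were computed with Python 3.11.15, NumPy 2.4.6 and pandas 2.3.3, and drawn with Matplotlib 3.10.9.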

Additional observations from a re-analysis of the deposited data

How the results depend on the processing

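With intervals compared by the root of their summed squared half-widths, which is a looser criterion, 197 genes were higher and 268 lower, in place of 90 and 89. With at least a 2-fold difference on the scale of log2(FPKM + 1) and no use of the intervals, 1812 were higher and 1308 lower. The other settings stayed within 1.5 times of 90 and 89. No minimum FPKM gave 90 and 89, a minimum of 5 gave 88 and 89, and centring gave 89 and 94. Intervals apart with an FPKM ratio of at least 2 gave 90 and 89. Without genes that share a locus they were 81 and 78, and for genes with values within their own bounds, a setting chosen after seeing the data, 89 and 89. Leaving out genes that share a locus took the lists of Hsp90, J-domain, haem and tubulin genes from 3, 2, 2 and 1 genes apart to 1, 1, 1 and 0. The lists of autophagy genes and of F-box and MATH-BTB genes each went from 4 to 3. No paired analysis was possible because the deposited values are pooled over the libraries of a genotype, and leaving out each replicate was not run for the same reason. Of 60 list medians, 8 changed sign under at least 1 setting, 5 of them at a minimum FPKM of 5, 1 with centring and 3 without genes that share a locus; none did with pseudocounts of 0.1 or 0.01. None of the 77 named genes with intervals apart changed sign. The level of the deposited intervals is not stated and the depth is unknown, so small differences of weakly expressed genes cannot be resolved.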

Other observations

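Some abundant genes could not be compared because the deposited table marks them as failed in the transgenic line, where they are listed at 0. rps-3, a gene of the small ribosomal subunit, was at 4660.4 in the mutant and 3768 in wild type, H42K12.3 at 1065 and 874, and C23G10.2 at 73.1 and 168. Of the 41 genes without an OK status in both genotypes, these 3 were failures in the transgenic line, 37 were marked as low data and ZC247.1 as having too much data.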
